A study of Saccharomyces cerevisiae with 6 samples.

Results

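The −1 and +1 nucleosomes, which flank the promoter, were examined for the DNA linking number difference (∆Lk) that each restrained when placed in a yeast minichromosome. Among the 8026 distinct fragments of the nucleosome library with deposited counts, 367 were of core length (130 to 159 bp), lay at gene position −1 or +1 in the study's list of nucleosomes, and met the other limits. These limits kept out fragments marked as terminal, rDNA or telomeric, fragments within 30 kb of a chromosome end, and fragments with under 10 reads in either gel section. Of the 367 fragments, 156 lay at −1 (144 distinct nucleosomes) and 212 at +1 (198 distinct nucleosomes), and 1 overlapped both a −1 and a +1 nucleosome and counted in both groups. A single candidate fragment failed the read minimum. The other 2921 core-length fragments outside repeats served as background.

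The library was made from Saccharomyces cerevisiae strain FY251 grown in rich medium, whose chromatin was cut with micrococcal nuclease, an enzyme that digests the linker DNA between nucleosomes. Each fragment was carried by the circular minichromosome YCp1.3 in transformed yeast, and DNA of the pooled colonies was sequenced before gel electrophoresis (NucLib) or after elution from the top gel section (Topo-seq-A, less negative ∆Lk) or the bottom section (Topo-seq-B, more negative ∆Lk). The 3 samples, all of the same strain with no treatment, were each sequenced in 2 runs of the same DNA, and the gel was run once. The spread between runs and every p-value therefore covered sequencing error only, and a nucleosome was measured in the minichromosome, not beside its own promoter.

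In yeast genes the +1 nucleosome is the first nucleosome of the transcribed unit and usually covers or borders the transcription start site. The −1 nucleosome lies on the far side of the nucleosome-depleted promoter, where general factors and remodellers bind. DNA wraps around a histone octamer in a left-handed path, so each nucleosome restrains negative ∆Lk, and its amount depends on how much DNA is wrapped and on the twist of that DNA. Where promoters are divergent, or genes lie close together, the −1 nucleosome of one transcript can be the +1 nucleosome of another.

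The sequences that marked the ends of the range are given first, as read from the R64 (RefSeq) genome on the strand of the gene, or on the plus strand for SUT680 and CUT199, noncoding transcripts whose strand was not annotated in the reference. They are the least and the most negative ∆Lk at each position among well-counted fragments (100 reads or more in either section, and no change of side relative to the library mean between the runs). Capitals mark AA, TT and TA steps, which are flexible or bend the helix. The SSK22 −1 fragment lies at chrIII:246927-247058 on the minus strand, the SUT680 −1 fragment at chrXI:519554-519695, the CUT199 +1 fragment at chrX:118043-118180 and the YGR079W +1 fragment at chrVII:640720-640865 on the plus strand.
SSK22 −1: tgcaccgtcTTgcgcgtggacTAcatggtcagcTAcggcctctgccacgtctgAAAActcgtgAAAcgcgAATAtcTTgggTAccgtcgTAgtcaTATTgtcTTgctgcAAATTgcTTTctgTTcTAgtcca
SUT680 −1: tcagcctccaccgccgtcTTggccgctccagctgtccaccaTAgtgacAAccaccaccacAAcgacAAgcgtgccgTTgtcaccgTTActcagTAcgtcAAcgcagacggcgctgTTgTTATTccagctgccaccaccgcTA
CUT199 +1: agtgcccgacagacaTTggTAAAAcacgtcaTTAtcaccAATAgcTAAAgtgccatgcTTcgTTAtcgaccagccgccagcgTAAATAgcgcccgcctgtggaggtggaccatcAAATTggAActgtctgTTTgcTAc
YGR079W +1: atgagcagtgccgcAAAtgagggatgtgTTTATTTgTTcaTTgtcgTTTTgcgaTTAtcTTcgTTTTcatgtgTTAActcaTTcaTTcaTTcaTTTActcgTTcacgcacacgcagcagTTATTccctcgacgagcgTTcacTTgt
The marked steps made up 17.6% of all steps in the SSK22 fragment and 10.6% in the SUT680 fragment. They made up 19.0% in the CUT199 fragment and 22.8% in the YGR079W fragment. At −1 the less negative fragment of the pair was thus the one richer in these steps, and at +1 it was the poorer one. None of the 4 held AAAAA or TTTTT.

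The listed positions were first set against the annotated coding start of the gene, which the choice of fragments did not use. At −1, 127 fragments belonged to an annotated coding gene, and the midpoint of 126 of them lay upstream of its coding start, at a median of −304.5 bp (interquartile range −382 to −248). The exception was the fragment of DYN1, the dynein heavy chain, whose midpoint lay 28.5 bp inside the coding region. At +1, the median midpoint of 191 fragments was 4.5 bp from the coding start (interquartile range −49.75 to 36.25), with 90 upstream. The widest departures at +1 were YPK9, a vacuolar transport ATPase (−827.5 bp), and MEI4, required for meiotic recombination (552.5 bp). Of the −1 midpoints, 55 fell inside the coding region of another gene and 71 in no coding region. Of the +1 midpoints, 101 fell inside the coding region of their own gene.

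**Figure D1:**
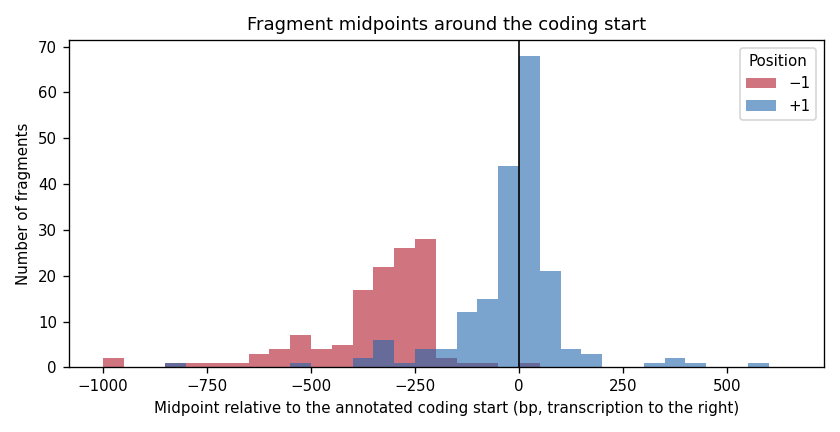
Number of fragments (y axis) by the distance of their midpoint from the annotated coding start in bp (x axis, transcription to the right, bins of 50 bp), for 127 fragments at −1 (red) and 191 at +1 (blue). The −1 fragments centre on −304.5 bp and the +1 fragments on 4.5 bp.

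The share of reads held by the members was similar in the runs of each sample. Members at −1 took 1.63% and 1.68% of the reads of the NucLib runs, 1.12% and 1.11% of the Topo-seq-A runs, and 0.814% and 0.826% of the Topo-seq-B runs. Members at +1 took 2.24% and 2.28%, then 1.88% and 1.86%, then 1.28% and 1.29%. Both positions thus held a larger share of section A than of section B in either run. The ratio of −1 reads to +1 reads was 0.595 and 0.599 in section A and 0.638 and 0.641 in section B, without overlap. The log2 difference was −0.10, with an exact permutation p of 0.333 (two-sided, 2 libraries against 2), the smallest this design allows. The NucLib ratio, 0.727 and 0.737, rested on 1 fragment at −1 of TPP1, a DNA 3′-phosphatase, with 2973 and 6295 reads in the NucLib runs. Without it the NucLib ratios were 0.572 and 0.578, those of section A 0.554 and 0.556, and those of section B 0.584 and 0.589.

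The first question was whether nucleosomes on opposite sides of the promoter restrain different ∆Lk. The mean ∆Lk was −1.26 ± 0.264 at −1 (SD, n = 156) and −1.28 ± 0.206 at +1 (SD, n = 212), where the library as a whole is centred on −1.26. The difference of the means, −1 minus +1, was 0.0193 with a standard error of 0.0274 over nucleosomes (95% interval −0.0347 to 0.0732). It was 0.0139 in run 1 and 0.0222 in run 2. No difference between the sides of the promoter was thus detectable at this number of nucleosomes, and the interval allows one of up to 0.0732. All these intervals describe the spread over nucleosomes of 1 library, and they are not a test over replicates.

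**Figure D2:**
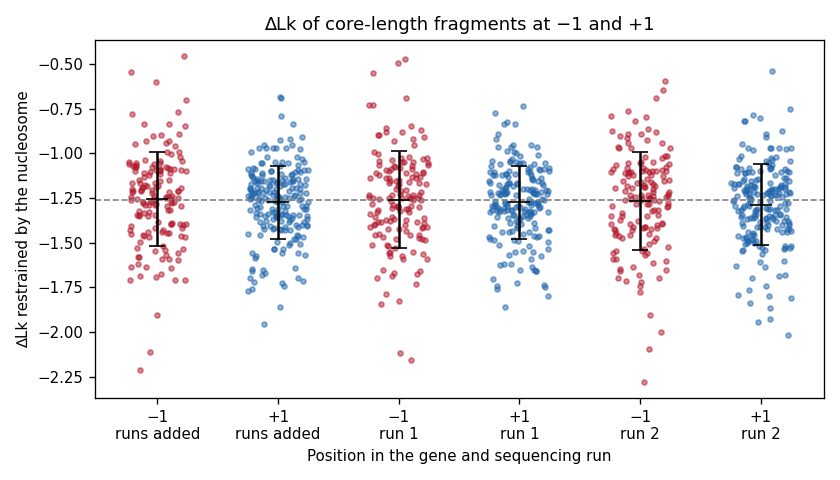
∆Lk restrained by each core-length fragment (y axis, in units of linking number) at −1 (red) and +1 (blue), with the reads of the runs added and in each single run. Bars are the mean and SD, and the dashed line is the library mean of −1.26. The means lie close to that line, and the −1 points reach farther in both directions.

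The range of single fragments was wide on both sides. At −1 the values ran from −2.21, a fragment of MNN2, a Golgi mannosyltransferase, to −0.457 at BNA7, an enzyme of NAD synthesis. At +1 they ran from −1.95 at MMF1, a mitochondrial protein, to −0.682 at HHF2, which encodes histone H4. Several of the fragments at the ends had few reads. The BNA7 fragment had 60 and 33 reads in the section A runs and 4 and 6 in the section B runs. The MMF1 fragment had 6 and 5 in section A and 8 and 14 in section B. The HHF2 fragment had 15 and 9 in section A and 3 and 7 in section B. Where both sections had 50 reads or more, the SD at −1 still exceeded that at +1, at 0.179 (n = 77) against 0.154 (n = 120). The median counting SD of a ∆Lk value was 0.0922 at −1 and 0.0803 at +1, and counting error made up 22.6% of the variance over all members. The counts of −1 members were lower, with medians of 89 (section A) and 51 (section B) at −1 and of 109 and 74 at +1.

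The runs gave the members a similar order. Over the 338 fragments with 5 reads or more in both sections of either run, ∆Lk in run 1 and run 2 had a Pearson's r of 0.685 and a Spearman's rho of 0.650 across fragments, which share their library and gel and are not replicates. The median absolute difference between runs was 0.112. Where both sections had 100 reads or more (127 fragments) r was 0.767, and 102 of these did not cross −1.26 between the runs. In the added runs 84 of 156 fragments at −1 (53.8%) and 112 of 212 at +1 (52.8%) lay above −1.26, against 1387 of 2921 other core-length fragments (47.5%).

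Both groups were then compared with intergenic DNA and with other positions in genes. Intergenic core-length fragments had a mean ∆Lk of −1.25 ± 0.211 (SD, n = 521) and fragments at +3 and beyond one of −1.29 ± 0.244 (SD, n = 1420). The −1 mean differed from these by −0.00098 (95% interval −0.0505 to 0.0485) and 0.0293 (−0.0196 to 0.0782). The +1 mean differed by −0.0202 (−0.0549 to 0.0144) and 0.0100 (−0.0237 to 0.0438). The next nucleosome into the gene, +2, had a mean of −1.37 with a wider SD of 0.339 (n = 391). It was 0.112 below −1 (95% interval −0.0267 to 0.251) and 0.0928 below +1 (−0.0415 to 0.227). Each of these 6 intervals includes 0.

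Partition between the gel sections was tested fragment by fragment with edgeR's quasi-likelihood test over all 8020 fragments with enough reads, with Benjamini-Hochberg adjustment at 0.05. Of the 367 members, 157 were called toward section A and 12 toward section B. Over all fragments 27.8% were called toward section A and 20.5% toward section B. Among the other core-length fragments the shares were 41.1% and 7.16%, so the members' share toward A, 42.8%, was near that of fragments of their own length. At −1, 73 of 156 (46.8%) were called toward A and 4 toward B, and at +1, 85 of 212 (40.1%) toward A and 8 toward B. The mean log2 ratio of section A over section B was 0.48 ± 0.70 at −1 (SD, n = 156) and 0.43 ± 0.54 at +1 (SD, n = 212), and it was above 0 in 124 and 175 fragments. These counts depended on the scaling and the tool. With TMM normalization edgeR called 115 members toward A and 21 toward B. DESeq2 called 77 members toward A and 5 toward B with the same library totals, and 50 and 7 with its own size factors.

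A second fit compared each fragment with the mean of all fragments of its own length. Here 55 members were called above their length mean (less negative ∆Lk), 29 at −1 and 26 at +1, and 28 below it, 9 at −1 and 19 at +1. The remaining 284 were not called. Over all fragments tested 18.4% were above and 14.0% below. Among other core-length fragments the shares were 16.6% and 11.2%. The share above was 18.6% at −1 and 12.3% at +1, on either side of that background. The share below was 5.77% at −1 and 8.96% at +1.

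Fragment length and ∆Lk varied together at both positions. The members were of like length, 147.5 ± 7.46 bp at −1 and 147.6 ± 7.70 bp at +1 (SD, n = 156 and 212). The steps that give ∆Lk lower it by 0.007 for each added bp, so a fall with length is built into the scale. Spearman's rho between length and ∆Lk was −0.495 at −1 (n = 156) and −0.336 at +1 (n = 212).
The shortest class, 130 to 139 bp, had the least negative means, −1.07 ± 0.210 at −1 (SD, n = 28) and −1.12 ± 0.207 at +1 (SD, n = 34). In this class the −1 fragments lay 0.142 above fragments at +3 and beyond (95% interval 0.0497 to 0.234), and the +1 fragments 0.0930 above them (0.0073 to 0.179). Against intergenic fragments of the same class the differences were 0.0517 (−0.0384 to 0.142) and 0.0026 (−0.0805 to 0.0857).
From 140 to 149 bp the mean was −1.21 ± 0.212 at −1 (SD, n = 55) and −1.27 ± 0.189 at +1 (SD, n = 74), and the +1 fragments lay below intergenic fragments by −0.0667 (95% interval −0.117 to −0.0161). From 150 to 159 bp it was −1.36 ± 0.269 (SD, n = 73) and −1.33 ± 0.192 (SD, n = 104). The −1 minus +1 difference was 0.0491, 0.0671 and −0.0371 from the shortest to the longest class. Each of its intervals includes 0, and 5 differences were computed in each of the 3 classes.

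**Figure D3:**
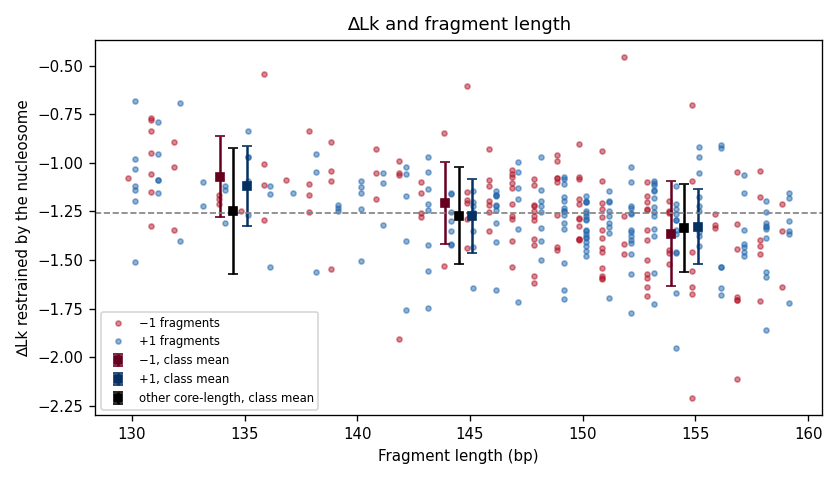
∆Lk (y axis, in units of linking number) against fragment length in bp (x axis) for fragments at −1 (red) and +1 (blue). Squares with bars are the mean and SD in classes of 10 bp for −1, +1 and other core-length fragments, and the dashed line is −1.26. The class means fall with length at both positions, and in the shortest class −1 and +1 (−1.07 and −1.12) lie above the other fragments (−1.25).

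Nucleosomes that served both roles had a less negative mean. Of the 367 fragments, 88 lay in nucleosomes whose listing could be read as −1 of one transcript and +1 of another. Some listings were cut short in the copy used, and a fragment whose second role was hidden in this way counted with the others. This was so for 3 fragments of an unnamed +1 nucleosome on chromosome XI, also listed at −1 of YKL085W. The mean ∆Lk of the 88 was −1.22 ± 0.203 (SD, n = 88), against −1.28 ± 0.239 for the other members (SD, n = 279). The difference was 0.0666 (95% interval 0.0112 to 0.122), and 0.0707 and 0.0686 in run 1 and run 2. From 20 reads upward in either section it was 0.0379 (−0.00795 to 0.0838). The edgeR fit relative to length called 20 of the 88 above their length mean and 3 below, or 22.7% and 3.41%. Of the other 279 members it called 35 above and 25 below, or 12.5% and 8.96%. The shares above and below were 18.4% and 14.0% over all fragments tested, and 16.6% and 11.2% over other core-length fragments. Among members of a single role the −1 and +1 means were −1.28 and −1.28, with a difference of 0.0032 (95% interval −0.0614 to 0.0678). AUR1, an enzyme of sphingolipid synthesis, was one of the highest of these shared nucleosomes at −0.703, with 49 and 44 reads in the section A runs and 5 and 14 in the section B runs (edgeR adjusted p = 4.71e-05).

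Well-counted nucleosomes gave the clearest single values at −1. The −1 nucleosome of SSK22, a kinase of the osmosensing pathway, is also the +1 nucleosome of SOL2, a gene related to 6-phosphogluconolactonases, and the midpoint of its 132-bp fragment lay in the SOL2 coding region. It had 2254 and 1913 reads in the section A runs, 1013 and 1364 in the section B runs, and 779 and 1740 in the NucLib runs. Its ∆Lk was −0.895 with a counting SD of 0.0136, and −0.879 and −0.901 in the single runs (edgeR adjusted p relative to length = 5.25e-20). That both runs lay on the same side of the library mean was a condition of the choice.
The −1 nucleosome of SAS4, a subunit of a histone acetyltransferase complex of silencing, is also the +1 nucleosome of CDC1. It had 184 and 159 reads in section A and 54 and 54 in section B, and a ∆Lk of −0.930 (edgeR adjusted p = 7.10e-06). The next were the noncoding transcripts Unit663 (−1.02) and Unit339 (−1.04), and MEH1 (−1.04), part of a vacuolar complex that acts on TORC1, whose −1 nucleosome is +1 of the mitochondrial ribosomal protein gene MRPL13. Of these 5 nucleosomes 3 were shared between transcripts, where 109 of all 156 fragments at −1, well counted or not, were not. The 5 were picked by ∆Lk, so this count adds no separate support to the comparison of shared nucleosomes. Among the 5 least negative at +1, given below, only that of LIF1 was shared.
At the other end stood the −1 nucleosome of SUT680, which lies inside UTH1, a cell wall and mitochondrial gene. This nucleosome is also listed at +3 of UTH1 itself (YKR042W). It had 103 and 71 reads in the section A runs, 187 and 255 in the section B runs, and 19 and 36 in NucLib. Its ∆Lk was −1.91 with a counting SD of 0.0451, and −1.84 and −2.00 in the single runs (edgeR adjusted p = 4.45e-16). The others were YJR112W-A (−1.54), SOD2, the mitochondrial superoxide dismutase (−1.47), RPS16B, a protein of the small ribosomal subunit (−1.46), and MGA1, related to heat shock transcription factors (−1.43). The YJR112W-A nucleosome is also listed at +3 of NNF1 (YJR112W), and the midpoint of its fragment lay in that gene. The fragment also carried a listing at +2 of NNF1. Among these most negative nucleosomes, SOD2 and RPS16B were not called relative to length (edgeR adjusted p = 0.198 and 0.172).

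The +1 nucleosomes were chosen by the same rule, and their adjusted p-values are again from the fit relative to length. The least negative was that of CUT199, a noncoding transcript within PIR5, a gene of a cell wall protein family. It had 1775 and 1338 reads in the section A runs, 700 and 789 in the section B runs, and 403 and 812 in NucLib. Its ∆Lk was −0.955 with a counting SD of 0.0165, and −0.962 and −0.967 in the single runs (edgeR adjusted p = 3.24e-15). Unit424 followed at −1.03, which was not called (edgeR adjusted p = 0.183). ALD6, the cytosolic aldehyde dehydrogenase that makes acetate, stood at −1.05, with its fragment centred 78 bp inside the coding region. LIF1, a partner of DNA ligase in end joining, stood at −1.05 and shares its nucleosome with NBP35. YBR071W, of unknown function, also stood at −1.05.
The most negative was the +1 nucleosome of YGR079W, an uncharacterized gene, centred 72.5 bp inside the coding region. It had 154 and 104 reads in the section A runs, 157 and 167 in the section B runs, and 242 and 426 in NucLib. Its ∆Lk was −1.66 with a counting SD of 0.0442, and −1.65 and −1.69 in the single runs (edgeR adjusted p = 1.33e-08). Its reads in NucLib exceeded those in either section, relative to the totals, unlike those of CUT199. UBA1, the ubiquitin-activating enzyme (−1.59), FZO1, the mitofusin (−1.54), SEC39, a vesicle tethering factor of the endoplasmic reticulum (−1.51), and MRP49, a mitochondrial ribosomal protein (−1.51), followed. FZO1 just missed the threshold relative to length (edgeR adjusted p = 0.0512).
By reads in NucLib, the most abundant fragments at −1 were those of TPP1 (−1.40) and MGA1, the latter also among the 5 most negative. At +1 they were those of SND1, a protein-targeting factor (−1.22), and AIM26 (−1.36). The pool from which the least and most negative were taken held 35 fragments at −1 and 67 at +1.

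Genes with members on both sides of the promoter allowed the sides to be compared within a gene. This was so for 6 genes, with 39 to 171 bp between the fragments (median 98.5). CKB1, a regulatory subunit of casein kinase, had a ∆Lk of −1.18 at −1 and −1.15 at +1. SEC62, part of the endoplasmic reticulum translocon, had −1.08 and −1.09. PET494, needed to translate a mitochondrial mRNA, had −1.45 and −1.35. In the added runs the fragments of each of these pairs were close to one another, although the genes themselves lay on different sides of the library mean. The CKB1 −1 fragment gave −1.04 and −1.40 in the single runs and thus crossed that mean.
MET12, a methylenetetrahydrofolate reductase, had −1.26 and −1.39, and MDL2, a mitochondrial transporter, −1.56 and −1.25. The MDL2 −1 fragment rested on only 14 section A reads and 15 section B reads. ISU2, a scaffold for iron-sulphur clusters, had −0.990 and −0.692, and both of its fragments were called above their length mean (edgeR adjusted p = 0.0159 and 0.00052). Its −1 nucleosome is also listed at −1 of HER1.
The −1 value was above the +1 value in 2 genes and below it in 4. The difference exceeded 2 counting SDs in 1, ISU2, at −0.298 with a counting SD of 0.125, where the single runs gave −0.0803 and −0.568. In 4 of the 6 pairs the same fragments flanked a second transcript with their roles exchanged, namely GET1 beside CKB1, NOG1 beside SEC62, RAD1 beside MET12 and SUT755 beside PET494. With the roles read from that second transcript the sign of these 4 differences is turned.

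**Figure D4:**
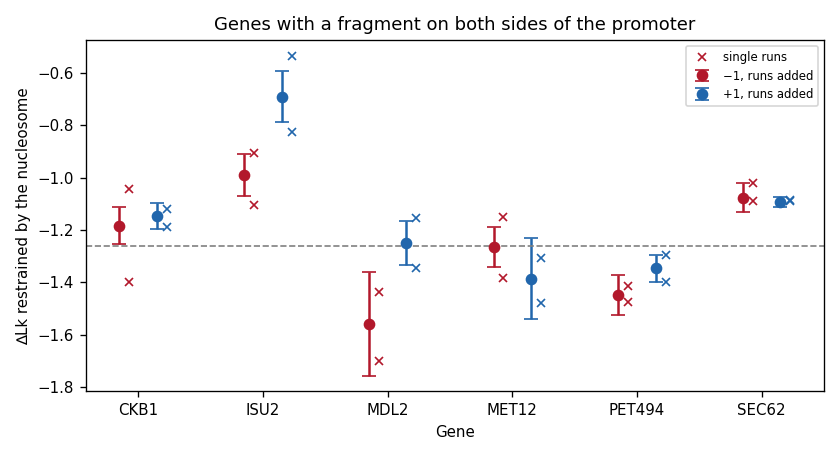
∆Lk (y axis, in units of linking number) of the −1 fragment (red) and the +1 fragment (blue) of the 6 genes (x axis) that had both. Dots with bars are the added runs with the counting SD, crosses in either colour the single runs, and the dashed line is −1.26. The bars of the pair overlap in CKB1, MET12, PET494 and SEC62, and ISU2 has the widest gap relative to its bars.

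Fragments of the same nucleosome that differ at their ends were compared with one another. There were 41 pairs of members that overlap by at least 100 bp, with a median absolute difference of 0.199. In 11 pairs the difference exceeded 2 counting SDs. Without 14 minor fragments (those sharing 1 end with a neighbour 50 times as abundant or more), 12 pairs were left, with a median difference of 0.320, of which 8 exceeded 2 counting SDs. The widest case was the −1 nucleosome of MNN2, at chrII:269731-269883 for fragment 1, chrII:269731-269885 for fragment 2 and chrII:269782-269930 for fragment 3, in R64 on the minus strand. Capitals mark the bases that lie outside fragment 1.
MNN2 −1 fragment 1: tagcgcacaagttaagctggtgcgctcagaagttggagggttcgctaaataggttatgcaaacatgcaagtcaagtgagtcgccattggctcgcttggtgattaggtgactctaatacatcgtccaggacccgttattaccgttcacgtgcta
MNN2 −1 fragment 2: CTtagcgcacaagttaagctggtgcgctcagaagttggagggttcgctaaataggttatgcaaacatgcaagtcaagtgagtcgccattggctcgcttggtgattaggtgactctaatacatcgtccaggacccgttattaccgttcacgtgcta
MNN2 −1 fragment 3: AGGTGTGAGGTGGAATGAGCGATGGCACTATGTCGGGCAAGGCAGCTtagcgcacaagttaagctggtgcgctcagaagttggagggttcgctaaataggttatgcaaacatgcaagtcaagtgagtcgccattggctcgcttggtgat
The adjusted p-values of these fragments are from the fit relative to length. Fragment 1 had 794 and 540 reads in section A and 282 and 305 in section B. Its ∆Lk was −1.10 (−1.11 and −1.12 in the single runs, edgeR adjusted p = 2.28e-07). Fragment 2, which is 2 bases longer, had 23 and 14 reads in section A and 62 and 80 in section B. It was scarce in the NucLib runs, with 6 and 13 reads against 223 and 517 for fragment 1. The ∆Lk of fragment 2 was −2.21 (−2.16 and −2.28 in the single runs, edgeR adjusted p = 3.14e-11). Nearly the same sequence thus stood on opposite sides of the library mean in both runs, and the cause was not tested. Fragment 3 stood between them at −1.43 (25 and 27 reads in the section A runs, 14 and 25 in the section B runs, edgeR adjusted p = 0.435).
The other 5 nucleosomes with at least 3 fragments spanned less. The 6 fragments at +1 of SND1 ran from −1.76 to −1.22 and the 4 at −1 of MGA1 from −1.69 to −1.43, where in each case 1 fragment held most of the reads. The 3 fragments at −1 of the noncoding transcript anti054 ran from −1.18 to −0.782, and the 3 at +1 of CUT199 from −1.20 to −0.955. An unnamed +1 nucleosome on chromosome XI, whose midpoint lies in SRX1, a sulfiredoxin gene, had 3 fragments from −1.12 to −0.972.

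The base composition of the fragments was alike on both sides of the promoter. The GC content was 40.7 ± 6.25% at −1 (SD, n = 156) and 40.8 ± 6.11% at +1 (SD, n = 212), with a difference of −0.0344 points (95% interval −1.67 to 1.60). Other core-length fragments had 41.9%, and those at +2 46.9%. AA or TT steps made up 19.6% of steps at −1 and 19.3% at +1, against 18.0% in the other fragments. Members above −1.26 had 41.6% GC at both positions, and those below it 39.7% at −1 and 39.9% at +1. Their AA and TT share was 18.3% above and 21.0% below at −1, and 18.4% and 20.2% at +1. Spearman's rho between GC and ∆Lk was 0.228 at −1 (n = 156) and 0.120 at +1 (n = 212) across fragments that share a library and whose GC and length also vary. Against the distance of the midpoint from the coding start it was −0.163 (n = 127) and −0.0367 (n = 191).

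GC content differed between the side of the fragment that faces the promoter and the side away from it. With 1 fragment for each nucleosome of a coding gene, the side facing the promoter had 39.3% GC at −1 and the side away from it 41.2%, a difference of −1.88 points (95% interval −3.45 to −0.305, n = 118). At +1 the sides had 38.8% and 40.9%, a difference of −2.06 points (95% interval −3.11 to −1.01, n = 181). The facing side was lower in 64 and higher in 43 nucleosomes at −1, and lower in 95 and higher in 63 at +1. The difference in AA and TT steps was 1.12 points at −1 (95% interval −0.422 to 2.66) and 0.499 points at +1 (−0.555 to 1.55). The share of sides that held AAAAA or TTTTT differed by 5.08 points at −1 (−7.27 to 17.4) and 3.87 points at +1 (−5.71 to 13.4). These 4 intervals include 0. In steps of 10 bp, A + T went from 56.0% to 61.1% along −1 nucleosomes and from 62.8% to 58.2% along +1 nucleosomes, read in the direction of transcription. This difference in GC between the sides had a Spearman's rho with ∆Lk of −0.0583 at −1 and 0.0422 at +1, over the same nucleosomes.

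**Figure D5:**
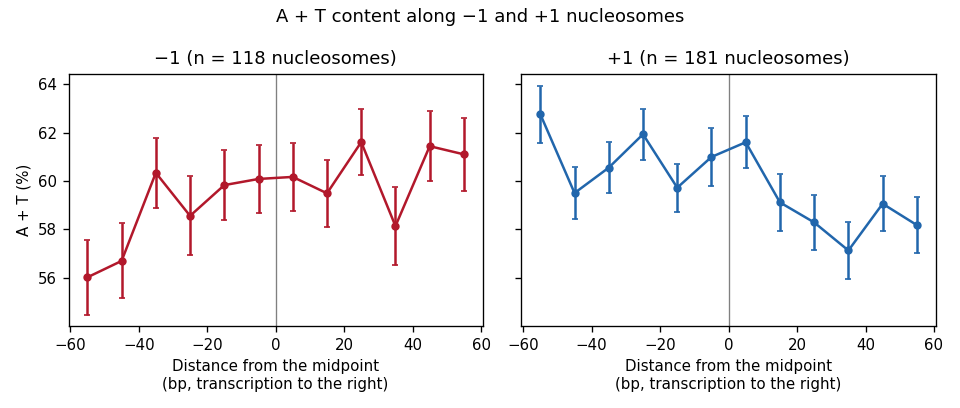
A + T content in percent (y axis, mean and standard error over nucleosomes) by distance from the fragment midpoint in bp (x axis, bins of 10 bp, transcription to the right), for 118 nucleosomes at −1 (left) and 181 at +1 (right). A + T is higher toward the promoter, which lies to the right of −1 (61.1% in the last bin) and to the left of +1 (62.8% in the first bin).

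Promoter motifs were searched on both strands of the fragments, as letters only. TATAAA, the core of the TATA box bound by TBP, was found in 24 of 156 fragments at −1 (15.4%) and 30 of 212 at +1 (14.2%), against 8.25% of other core-length fragments. A run of 5 A or T (AAAAA or TTTTT) was found in 55.8% and 50.9%, against 43.8% of the others and 56.8% of fragments at +2. A run of 7 (AAAAAAA), which always holds the shorter run, was found in 15.4% at −1, 7.55% at +1 and 5.79% of the others. TTACCCG, bound by Reb1, another general factor, was found in 0 fragments at −1, 1 at +1 and 0.411% of the others. The motif of the general factor Abf1, TCA and ACG with 6 free bases between them, was found in 5.13% and 5.19%, against 4.76%. CACGTG, bound by Cbf1 or Pho4, was found in 3.21% and 1.42%, against 1.34%.

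The members' genes were read by function with 13 lists, as counts and medians only. Each list held few members, and the background is the 16.6% and 11.2% of other core-length fragments called above and below their length mean. Of 148 genes of chromatin remodelling and histone modification, 4 had a −1 member, and the ∆Lk of all 4 lay above −1.26, with a median of −0.994, against −1.25 over all −1 members. They were SAS4 and SIF2, a subunit of a histone deacetylase complex (−1.06), YNG1 of the NuA3 acetyltransferase (−0.834) and SWI3 of the SWI/SNF remodeller (−1.25). SAS4 and YNG1 were called above, and SIF2 and SWI3 were not called (edgeR adjusted p = 0.261 and 0.789). The single runs of SWI3 gave −1.15 and −1.40, on different sides of −1.26. Over all fragments at −1, 53.8% lay above −1.26. The YNG1 nucleosome is also −1 of CYT1, the cytochrome c1 gene, and the SWI3 nucleosome also −1 of KRE9, a cell wall gene. At +1, 8 genes of this list had a median of −1.23, and 1 was called above, SWP82 of SWI/SNF, at −0.917 (34 and 42 reads in the section A runs, 10 and 14 in the section B runs, edgeR adjusted p = 0.00660).
Of 170 genes for RNA polymerase II transcription factors, 7 had −1 members, with 11 fragments and a median of −1.43, of which 4 were the nested fragments of MGA1. INO4 (−1.71) and GCR1 (−1.64), activators of phospholipid and glycolytic genes, were low but not called (edgeR adjusted p = 0.114 and 0.258). A fragment of RME1, a repressor of meiosis, was called above at −0.544, with 33 and 11 reads in section A and 5 and 5 in section B (edgeR adjusted p = 0.00331). A second RME1 fragment stood at −1.24. At +1 none of the 11 genes was called, and their median was −1.31.

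The lists of metabolism had single members at the ends of the range. At +1, 4 genes were on the list of glycolysis and fermentation, of which ALD6 was called above. FBP1, fructose-1,6-bisphosphatase, on the same list, was called below (−1.86, edgeR adjusted p = 0.0216). FBP1 had few reads, 11 and 4 in the section A runs and 15 and 15 in the section B runs. Run 1 gave −1.76, and run 2 fell short of the 5 reads needed for a single run. Of the 4 genes of respiration at +1, COX7, a cytochrome c oxidase subunit, was called below (−1.73, edgeR adjusted p = 0.000479) and ATP18 of the ATP synthase above (−1.14, edgeR adjusted p = 0.0362). For nutrient synthesis, 1 of 6 fragments at −1 was called above, BNA7, and 1 of 9 at +1 below, SPE4, the spermine synthase (−1.71, edgeR adjusted p = 0.000676). The reads in sections A and B were 64 and 92 for COX7 and 53 and 74 for SPE4. Of 3 cell cycle genes at −1, CHK1, a DNA damage kinase (−1.13, edgeR adjusted p = 7.71e-07), and CDC36 of the CCR4-NOT complex, which acts on mRNA decay and transcription (−1.07, edgeR adjusted p = 0.0179) were called above, and CLN2, a G1 cyclin (−1.27), was not. None of 5 at +1 was called.
Of the cell wall genes, 2 had 4 fragments at −1, of which those of MNN2 are given above, and 6 had +1 members between −1.29 and −1.09. Of these, GSC2, a glucan synthase, was called above (−1.20, edgeR adjusted p = 0.0186).
Few ribosomal protein and histone genes had a member. Of 138 ribosomal protein genes, RPS16B had a −1 member, and RPL41A (−1.34) and RPL8B (−1.41) had +1 members. Both histone H4 genes had +1 members, HHF1 at −1.46 and HHF2 at −1.27 and −0.682, the last with few reads. None of these 6 fragments was called relative to length. The 2 proteasome fragments at −1 and 3 at +1 ranged from −1.40 to −1.11 and were not called, nor were SSB1, a chaperone, at +1 (−1.31) and the translation factors TMA10 (−1.22) and CAF20 (−1.26) at −1. No hexose transporter gene had a member.

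Members of noncoding transcripts were also counted. At −1, 24 fragments belonged to 21 such transcripts, with a median of −1.26 and a range of −1.91 to −0.782. Of these, 5 were called above their length mean and 3 below. At +1, 14 fragments of 12 transcripts had a median of −1.22 and a range of −1.56 to −0.789, with 3 called above and 0 below. The background for these calls is the same 16.6% and 11.2% of other core-length fragments. Noncoding minus coding, over both positions, was 0.0049 (95% interval −0.0893 to 0.0992, n = 38 and 318).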

How the data were processed

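The deposited files hold raw read counts per fragment and run, which the authors obtained by mapping with Bowtie 1.1.2 against build R64 and tallying every distinct fragment. BWA, SAMtools and Picard are named in the submitters' processing notes as well. Each list ends at 65536 lines, so the scarcest fragments are missing and the totals (851697 to 2073823 reads per run) are lower bounds. Gene position, class and nucleosome came from the study's supplementary list, of which the copy used held 8169 of 8369 fragments, some with gene listings cut short. Sequences and gene names came from the R64 RefSeq reference.

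∆Lk followed the study's steps. The share of section A among relative abundances became a Z-score, which was scaled by 0.85. The mean at that length was subtracted, 0.007 was taken off for each bp above 144 bp (or added below it), and −1.26 was added. At least 10 reads in each section were needed, or 5 for a single run. Its counting SD covers counting error alone, because no source states that molecular identifiers were used in counting, and reads of PCR products are then not independent molecules. Means were given with 95% intervals over nucleosomes, with no test. Partition was tested with edgeR 4.0.16 (quasi-likelihood, totals of the lists as library sizes, 2 runs against 2), and the same fit with an offset per length (lengths with at least 20 fragments) gave calls relative to length. DESeq2 1.42.0 was an alternative. Per the study's methods the 2 runs came from different flow cell lanes. Whether runs of equal number in different samples shared a lane is not stated. Run 1 minus run 2 in section A correlated with the same in section B at r = 0.191 over 2431 fragments with 100 reads, and the fit with the run number as a block was an alternative.

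Members and gene lists were chosen with earlier results of these data known, and the comparison of shared nucleosomes in numbers was added after the data were seen. Named were the 5 least and 5 most negative nucleosomes per position (100 reads in each section, same side of −1.26 in both runs), the 2 most abundant, genes with both positions, nucleosomes with at least 3 fragments, and members of the lists. Names outside this rule (MMF1, DYN1, YPK9, MEI4, AUR1) were picked for their values. Other choices tried were read minimums, normalization, length steps and left-out runs. Scripts were tested on simulated data. Tools were R 4.3.3, Python 3.11.15, numpy 2.4.6, pandas 2.3.3, scipy 1.17.1 and matplotlib 3.10.9.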

Additional observations from a re-analysis of the deposited data

How the results depend on the processing

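The −1 minus +1 difference in mean ∆Lk stayed between 0.0032 and 0.0339 under every alternative tried, and each 95% interval included 0. Without subtracting the mean of the length class the means themselves became −1.09 and −1.11. The difference between shared and other nucleosomes was 0.0379 with 20 reads and 0.0378 with 50 reads in each section, where its interval included 0, and it was above 0 in all other alternatives. Members called toward section B numbered 21 with TMM normalization, which called 115 toward A, and 7 with 50 reads in each section. DESeq2 called 77 toward A and 5 toward B with the list totals, and 50 and 7 with its own size factors. With 50 reads, 33 of the 196 members left were called above their length mean, where fewer fragments were tested. The log2 difference in the −1 to +1 read ratio between the sections was −0.0779 without TPP1. Otherwise the cause of these changes was not tested.

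With the run number as a replicate block, 163 members were called toward A and 12 toward B, and 58 above and 32 below their length mean. Leaving out 1 run at a time gave 123 to 143 toward A, 8 to 10 toward B, 39 to 49 above and 19 to 28 below. Of the 23 named nucleosomes, 3 crossed −1.26 when the length mean was not subtracted, namely RPS16B, TPP1 and AIM26. None did under the other 4 settings. For the least and most negative nucleosomes, leaving out a run could not show a crossing, because the same side in both runs was a condition of their choice. Counts limit the rarest members, of which some had 10 reads in a section.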
